A study of Mus musculus with 74 samples.

Results

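Microglia of mice without Trem2 were compared with microglia of mice that carried 1 intact copy, after 5 weeks of demyelinating diet. The comparison used 6 of the 74 libraries of the series: the Cd11b-positive fraction of Trem2 -/- animals 2478, 310 and 8485 and of Trem2 +/- animals 1106, 1108 and 8042, all fed chow with 0.2% cuprizone. Members were chosen by these labels alone, and all genes of the deposited table were examined. Each genotype group had 1 male and 2 females, and the sources used here give neither age nor strain. Brains were perfused and dissociated, and viable cells were sorted into Cd11b-positive cells, labelled microglia, and all remaining cells. Every other group used below had 3 animals unless stated: Trem2 -/- and Trem2 +/- on control chow for 5 weeks, Trem2 wild type on cuprizone for 5 weeks, and Trem2 -/- (3 animals) and Trem2 +/- (4 animals) on cuprizone for 12 weeks. RNA was sequenced as tags from the 3' ends of transcripts, so each value is a count per gene and does not resolve exons. The labels make each library a separate animal. In sorted bulk samples, fewer cells of a type and less RNA per cell cannot be told apart.

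Trem2 encodes a surface receptor of microglia and other myeloid cells that binds lipids, lipoproteins and cell debris and signals through the adaptor encoded by Tyrobp. Cuprizone is a copper chelator that kills oligodendrocytes, and microglia take up the myelin debris that follows. Microglia around such debris are known to take on a disease-associated state, described in an early stage that does not need Trem2 (stage 1) and a later stage that does (stage 2), while genes of the resting, homeostatic state are lowered.

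Of the 9 genes that passed the test between the genotypes, 7 matched an entry in the RefSeq table of promoters (assembly GRCm38.p6). The 250 bases before the start of 4 of them are shown 5′ to 3′ on the gene's own strand, as examples of genes that were lower together. Each of these windows holds at least 1 match to a searched motif, in capitals. Ank also holds a match and is not shown, and Pianp and Ccl6 hold none. The motifs were GAGGAA, the core letters bound by the myeloid factor PU.1 (TTCCTC when it lies on the other strand), the E-box CACGTG and TGANTCA. The last is a loose form of the AP-1 site, with any base allowed at N. Each was searched on both strands.
Trem2 promoter (chr17:48346151-48346400, plus strand): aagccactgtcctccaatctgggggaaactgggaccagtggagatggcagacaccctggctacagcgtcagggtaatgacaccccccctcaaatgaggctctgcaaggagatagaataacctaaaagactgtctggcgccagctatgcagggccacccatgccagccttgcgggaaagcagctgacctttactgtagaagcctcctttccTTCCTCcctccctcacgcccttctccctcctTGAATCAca
Clec7a promoter (chr6:129472780-129473029, minus strand): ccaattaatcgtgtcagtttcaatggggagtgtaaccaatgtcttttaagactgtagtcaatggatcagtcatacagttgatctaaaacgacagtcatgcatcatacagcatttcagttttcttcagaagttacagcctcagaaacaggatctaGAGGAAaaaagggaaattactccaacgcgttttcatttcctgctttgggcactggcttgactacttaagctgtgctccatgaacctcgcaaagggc
Slamf8 promoter (chr1:172590569-172590818, minus strand): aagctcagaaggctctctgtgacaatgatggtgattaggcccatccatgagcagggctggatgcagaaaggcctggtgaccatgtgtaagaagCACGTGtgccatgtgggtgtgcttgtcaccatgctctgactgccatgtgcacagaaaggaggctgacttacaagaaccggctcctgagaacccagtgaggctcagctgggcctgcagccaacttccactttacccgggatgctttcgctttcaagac
Cd63 promoter (chr10:128909095-128909344, plus strand): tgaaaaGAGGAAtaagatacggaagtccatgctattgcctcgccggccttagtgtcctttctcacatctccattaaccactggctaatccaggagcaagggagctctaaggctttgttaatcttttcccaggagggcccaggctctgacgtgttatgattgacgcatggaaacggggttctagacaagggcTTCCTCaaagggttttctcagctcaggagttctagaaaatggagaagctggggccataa
GAGGAA was found in 4 of the 7 windows (Clec7a, Trem2, Ank and Cd63) and in 23.1% of all 27025 promoters of the same length. Its longer form GAGGAAGT, which overlaps it, was found in 0 of the 7 and in 2.44% of all. CACGTG was found in 1 of the 7 (Slamf8) against 6.05%, and TGANTCA in 1 of the 7 (Trem2) against 6.87%. Such matches describe letters and not binding. The Cd63 window lies before the RefSeq start, which is inside the longer GENCODE span of the gene given below.

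The 6 libraries held 1753583 to 3945694 counts, and the knockouts (2345819 or more) were all deeper than the heterozygotes (2013233 or fewer). One count stood for 0.253 to 0.570 CPM (counts scaled to a common library total). RNA integrity numbers were 8.9 to 9.9 in knockouts and 8.8 to 9.8 in heterozygotes. The share of counts on noncoding genes was 5.20 to 6.90% in knockouts and 6.95 to 7.50% in heterozygotes, without overlap (exact permutation p = 0.1, the smallest possible), and its part in the results was not tested. Microglia markers dominated both groups, with a summed level of 30000 to 44801 CPM over 10 markers in knockouts and 29292 to 37987 in heterozygotes. The library of heterozygote 1106 stood apart: on the first principal component of 2744 well-expressed genes (33.1% of the variance) it lay at 31.6, and the other 5 libraries lay between -11.3 and -2.68. Called genes are therefore also given without it. Markers of other Cd11b-positive cells were measured in both groups: the 5 monocyte markers summed to 61.7 to 129 CPM in knockouts and 35.8 to 51.8 in heterozygotes, and none of the 5 was at 0 in a whole group. The 9 endothelial markers summed to 146 to 272 CPM in knockouts and 284 to 626 in heterozygotes. For both lists the exact permutation test over the 6 libraries gave a two-sided p = 0.1, the smallest that 3 against 3 allows. Border macrophage markers (847 to 1338 against 592 to 1052 CPM) and neutrophil markers (597 to 3376 against 477 to 2088) overlapped between the groups. The part of these cells in the results below was not tested.

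Few genes passed the test between the genotypes, and all of those that did were lower without Trem2. Of 14087 genes tested, 9 passed an adjusted p of 0.05 (0.0639% of all genes), all 9 lower in the knockouts. They were Lpl, Slamf8, Pianp, Cd52, Clec7a, Trem2, Ank, Cd63 and Ccl6. No gene was higher in the knockouts by edgeR's quasi-likelihood test, against 2 by DESeq2 and 4 by limma. At an unadjusted p under 0.05 there were 434 lower (3.08%) and 356 higher genes (2.53%). In simulated counts, the same fit recovered 7.58% of abundant genes given a log2 change of 1 and 67.2% at 2. Genes that did not pass can therefore still differ. The median log2 fold change over all tested genes was 0.02, and 48.8% of genes lay below 0. The plot of all tested genes shows the 9 genes under the bulk of genes of similar abundance.

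**Figure D1:**
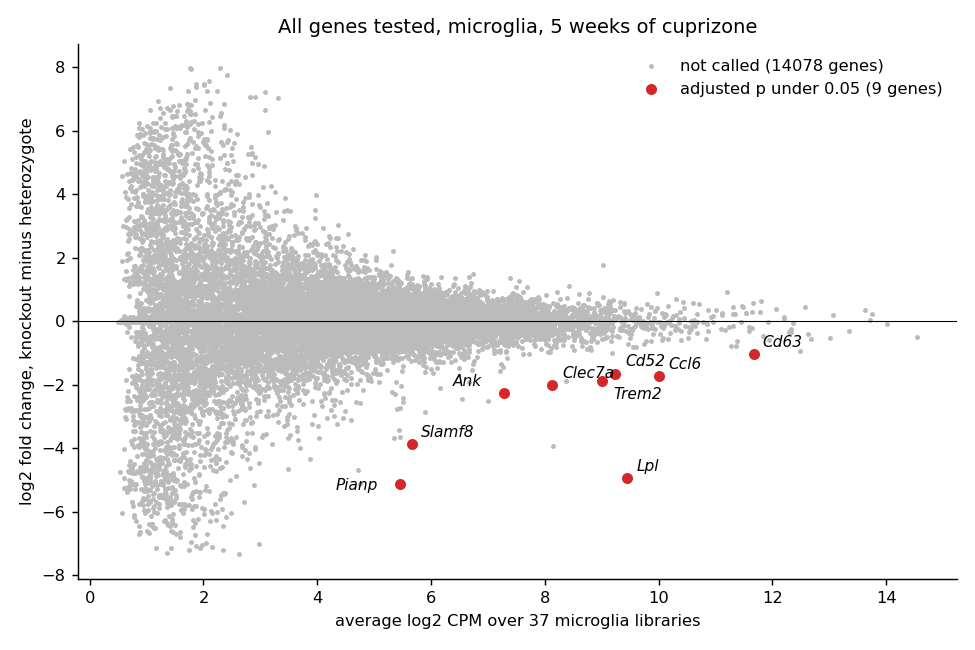
Log2 fold change (knockout minus heterozygote) against average log2 CPM over the 37 microglia libraries for all 14087 tested genes, with the 9 genes past an adjusted p of 0.05 in red. All 9 red points lie below 0, from Cd63 at -1.03 to Pianp at -5.13, and genes of low abundance spread widely to both sides.

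Trem2 itself (ENSMUSG00000023992.14, chromosome 17, 48346401 to 48354147, plus strand, GRCm38) checks the knockout labels. Its level was 189, 213 and 192 CPM in knockouts 2478, 310 and 8485, and 1032, 668 and 473 CPM in heterozygotes 1106, 1108 and 8042. All 3 knockouts lay below all 3 heterozygotes, and the level in knockouts was not near 0: 441 to 786 tags per library were still counted on the gene. The labels do not say which bases were deleted, so whether 3' tags can come from the mutant allele was not tested. The log2 fold change was -1.88 ± 0.33 (SE, adjusted p = 0.00109). Without heterozygote 1106, the highest of the 6 libraries, it was -1.51 and did not pass (adjusted p = 0.0871).

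Of the 18 genes listed for the TREM2 pathway, Trem2 was the 1 that passed, and the median of the list was -0.12 with 11 members below 0. At an unadjusted p under 0.05 by edgeR's test, 3 members were lower and 1 was higher (3.08% and 2.53% of all genes were). Tyrobp, the adaptor, stood at 1560, 3126 and 2685 CPM in knockouts and 6558, 2621 and 3329 in heterozygotes. The groups overlapped, and the high value was that of heterozygote 1106. The difference of Tyrobp was -0.78 ± 0.37 (adjusted p = 0.879), and -0.22 without that library. Syk, the kinase recruited by the adaptor, was at 0.04 ± 0.47, and Plcg2, the lipase downstream, at 0.06 ± 0.46 (adjusted p = 1 for both). The sheddase genes Adam10 and Adam17 were at 0.18 ± 0.39 and -0.36 ± 0.29, and neither passed.

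Lpl (ENSMUSG00000015568.16, chromosome 8, 68880491 to 68907448, plus strand) encodes lipoprotein lipase, which frees fatty acids from lipoprotein triglycerides. It stood at 47.3, 55.5 and 18.7 CPM in knockouts and at 779, 1788 and 1102 CPM in heterozygotes. The groups were far apart, with a 30.2-fold higher mean in heterozygotes. The log2 fold change was -4.93 ± 0.52 (adjusted p = 2.57e-06), and -5.18 without heterozygote 1106 (adjusted p = 6.55e-07).

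Slamf8 (ENSMUSG00000053318.7, chromosome 1, 172581758 to 172590568, minus strand), a receptor of the SLAM family on myeloid cells, was low in every knockout. Levels were 6.86, 5.41 and 4.78 CPM in knockouts, from 11 to 20 counts each, and 54.9, 104 and 84.5 CPM in heterozygotes. The log2 fold change was -3.86 ± 0.57 (adjusted p = 6.27e-05), and -4.12 without heterozygote 1106 (adjusted p = 3.82e-05). Pianp (ENSMUSG00000030329.11, chromosome 6, 124996694 to 125003096, plus strand) encodes a membrane protein that binds the inhibitory receptor PILR-alpha. It was nearly absent from the knockouts, with 2, 5 and 6 counts (0.722, 1.35 and 2.61 CPM) against 112, 88 and 94 counts (66.8, 43.0 and 53.6 CPM). The log2 fold change of Pianp was -5.13 ± 0.85 (adjusted p = 0.000555), and -4.87 without heterozygote 1106 (adjusted p = 0.00248).

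Cd52 (ENSMUSG00000000682.7, chromosome 4, 134082448 to 134095082, minus strand), a small lipid-anchored glycoprotein of leukocytes, stood at 368, 467 and 277 CPM in knockouts and 1462, 1055 and 948 in heterozygotes. The groups did not overlap. Its log2 fold change was -1.65 ± 0.28 (adjusted p = 0.000555), and -1.49 without heterozygote 1106 (adjusted p = 0.0144). With the 6 libraries alone Cd52 did not pass (adjusted p = 0.101). Clec7a (ENSMUSG00000079293.11, chromosome 6, 129461591 to 129472779, minus strand) encodes Dectin-1, a receptor for beta-glucans, and carries the biotype polymorphic pseudogene in the table. It stood at 111, 104 and 88.6 CPM in knockouts and 329, 539 and 345 in heterozygotes, with no overlap. The difference was -1.996 ± 0.34 (adjusted p = 0.000732), and -2.14 without heterozygote 1106 (adjusted p = 0.000887).

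The other 3 genes passed by a small margin. Ank (ENSMUSG00000022265.7, chromosome 15, 27466677 to 27594909, plus strand) encodes a membrane protein that releases pyrophosphate or ATP. Its levels were 53.8, 40.6 and 39.5 CPM in knockouts and 67.4, 351 and 226 CPM in heterozygotes, so heterozygote 1106 lay close to the knockouts. The log2 fold change was -2.27 ± 0.48 (adjusted p = 0.0441), and -2.69 without that library (adjusted p = 0.000674). Leaving out any other of the 6 libraries ended the call of Ank (adjusted p 0.123 to 0.575).

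Cd63 (ENSMUSG00000025351.14, chromosome 10, 128900989 to 128912822, plus strand), a tetraspanin of late endosomes and lysosomes, stood at 2021, 2023 and 1649 CPM in knockouts and 3925, 4199 and 3455 in heterozygotes. Replicates lay close together, and the difference was -1.03 ± 0.22 (adjusted p = 0.0441). Its call was lost when any 1 of the 6 libraries was left out, with differences of -1.04 to -0.98 (adjusted p 0.135 to 0.549), and without heterozygote 1106 the adjusted p was 0.135. Ccl6 (ENSMUSG00000018927.3, chromosome 11, 83587882 to 83593087, minus strand), a chemokine of myeloid cells, stood at 206, 665 and 587 CPM in knockouts and 1252, 1470 and 2079 in heterozygotes. Its difference was -1.72 ± 0.36 (adjusted p = 0.0473). Of the 6 fits that left out 1 library, only the one without knockout 310 kept the call of Ccl6 (adjusted p = 0.0474), and without heterozygote 1106 it was -1.86 (adjusted p = 0.0616). Ccl6 passed by DESeq2 (0.000504) and by limma (0.00221).

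**Figure D2:**
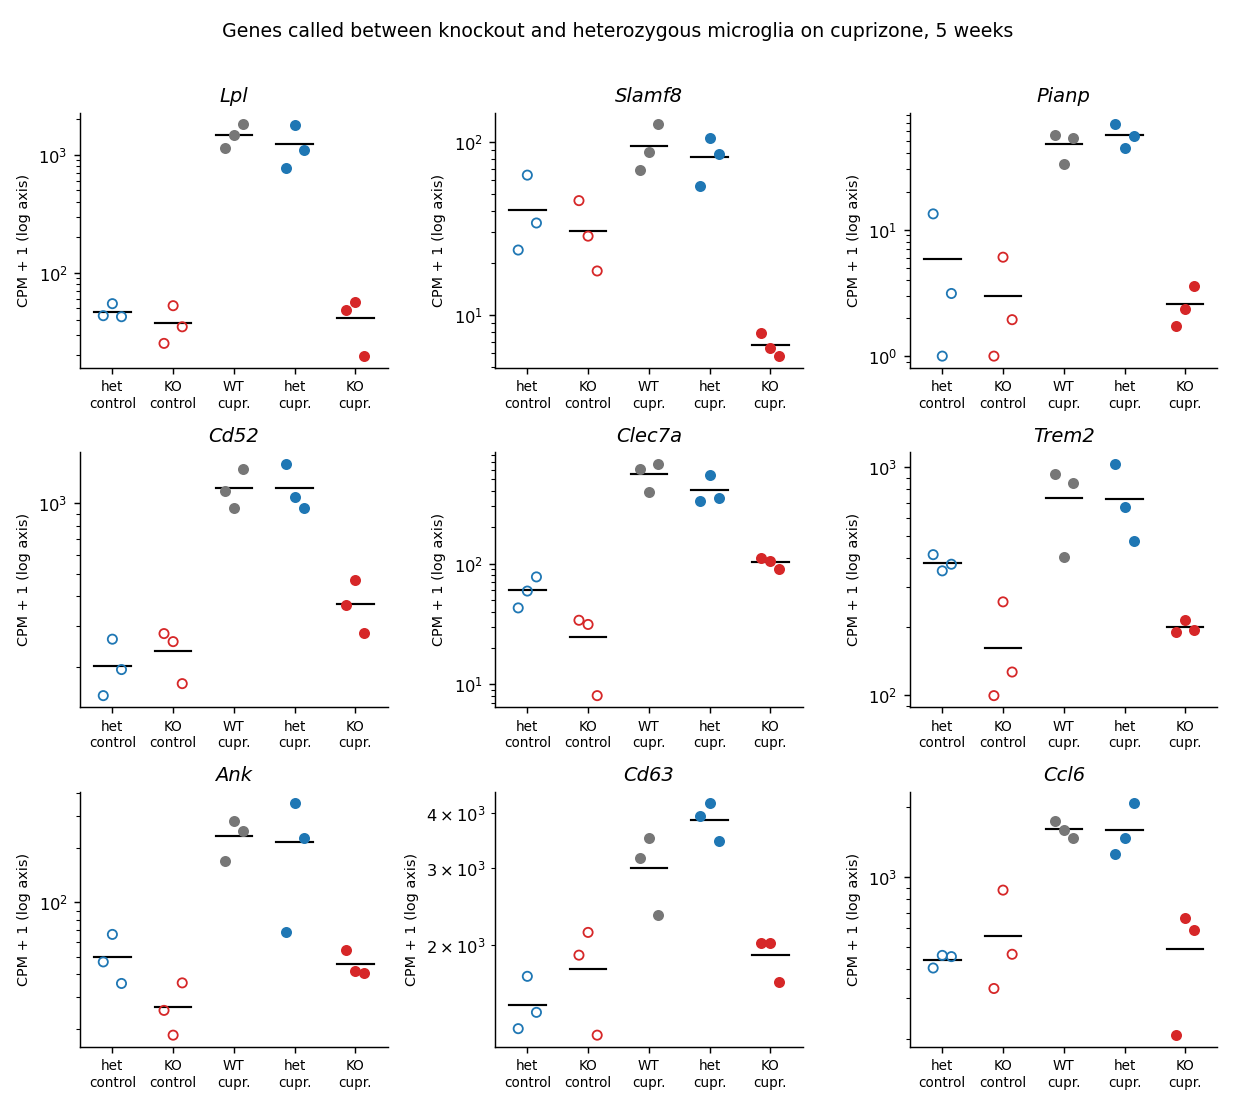
Level (CPM + 1, log axis) of the 9 called genes in each microglia library at 5 weeks, 1 point per animal and a bar at the group mean, for heterozygotes and knockouts on control chow (open) and wild types, heterozygotes and knockouts on cuprizone (filled). In every panel the 3 knockouts on cuprizone lie below the 3 heterozygotes and the 3 wild types on cuprizone, and for Lpl they lie at 18.7 to 55.5 CPM, near the 24.2 to 53.8 CPM of both control groups.

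Disease-associated genes were described through lists taken from general knowledge and named for published stages. All lists were chosen with earlier results of these data known, so their counts describe the genes and test nothing. Of the 20 genes of stage 2, 6 passed and all 6 were lower: Lpl, Clec7a, Cd52, Ank, Cd63 and Ccl6. The median of the list was -1.23, 18 of 20 members lay below 0, and 12 were lower at an unadjusted p under 0.05 (3.08% of all genes were). In 10 of the 20 genes all 3 knockouts lay below all 3 heterozygotes, as in 3.94% of all genes. Without heterozygote 1106 the median was -1.05.

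Several stage 2 genes had large differences that did not pass. Itgax, the integrin chain CD11c, stood at 21.3, 37.9 and 28.7 CPM in knockouts and 202, 130.4 and 169 in heterozygotes (-2.51 ± 0.63, adjusted p = 0.295). Cst7, which encodes the cysteine protease inhibitor cystatin F, stood at 129, 276 and 94.7 CPM against 647, 620.1 and 539 (-1.87 ± 0.49, adjusted p = 0.429). The groups of both genes did not overlap. Itgax passed by DESeq2 (adjusted p = 0.00325) and by limma (0.00298), with no filter on low counts (2.22e-05) and with the 6 libraries alone (0.0431). Cst7 passed by DESeq2 (adjusted p = 0.0109), by limma (1.24e-06) and with no filter on low counts (0.000147). Spp1, which encodes osteopontin, spread over 0.434 to 57.1 CPM in knockouts and 59.0 to 771 in heterozygotes (-3.91 ± 1.12, adjusted p = 0.775). It passed by DESeq2 (adjusted p = 0.0483) and with no filter (8.69e-20).

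The colony-stimulating factor gene Csf1 was at -1.57 ± 0.59 (adjusted p = 0.879). Axl, a receptor tyrosine kinase for apoptotic cells, stood at 118, 71.5 and 25.6 CPM against 319, 196 and 71.3, so that the groups overlapped (-1.44 ± 0.44, adjusted p = 0.798). Cd9, a tetraspanin, was at -0.49 ± 0.63 (adjusted p = 1), with the lowest of the 6 values, 213 CPM, in heterozygote 1106. The members for cathepsins L and Z and the lysosomal membrane protein CD68 did not pass, unlike Cd63: Ctsl was at 0.16 ± 0.48, Ctsz at -0.08 ± 0.28 and Cd68 at 0.09 ± 0.24 (adjusted p = 1 each).

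Stage 1 had no gene past the threshold among 9 by edgeR's test. At an unadjusted p under 0.05, 4 were lower (3.08% of all genes were). Apoe, the lipid carrier, stood at 4221, 4183 and 1524 CPM in knockouts and 7434, 6506 and 4556 in heterozygotes. All knockouts lay below all heterozygotes, with a difference of -0.92 ± 0.25 (adjusted p = 0.312), and -0.59 without knockout 8485, the lowest library. Apoe passed by DESeq2 (adjusted p = 0.0481) and with no filter on low counts (0.00299), and not by limma (0.111). Fth1, which encodes ferritin heavy chain, was at -0.78 ± 0.23 (adjusted p = 0.668). It passed by DESeq2 (adjusted p = 0.0382), by limma (0.000546) and without knockout 310 (0.0274). The cathepsin gene Ctsb was at -0.15 ± 0.22 and B2m, the light chain of MHC class I, at -0.01 ± 0.27. The median of stage 1 was -0.35, with 7 of 9 members below 0.

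**Figure D3:**
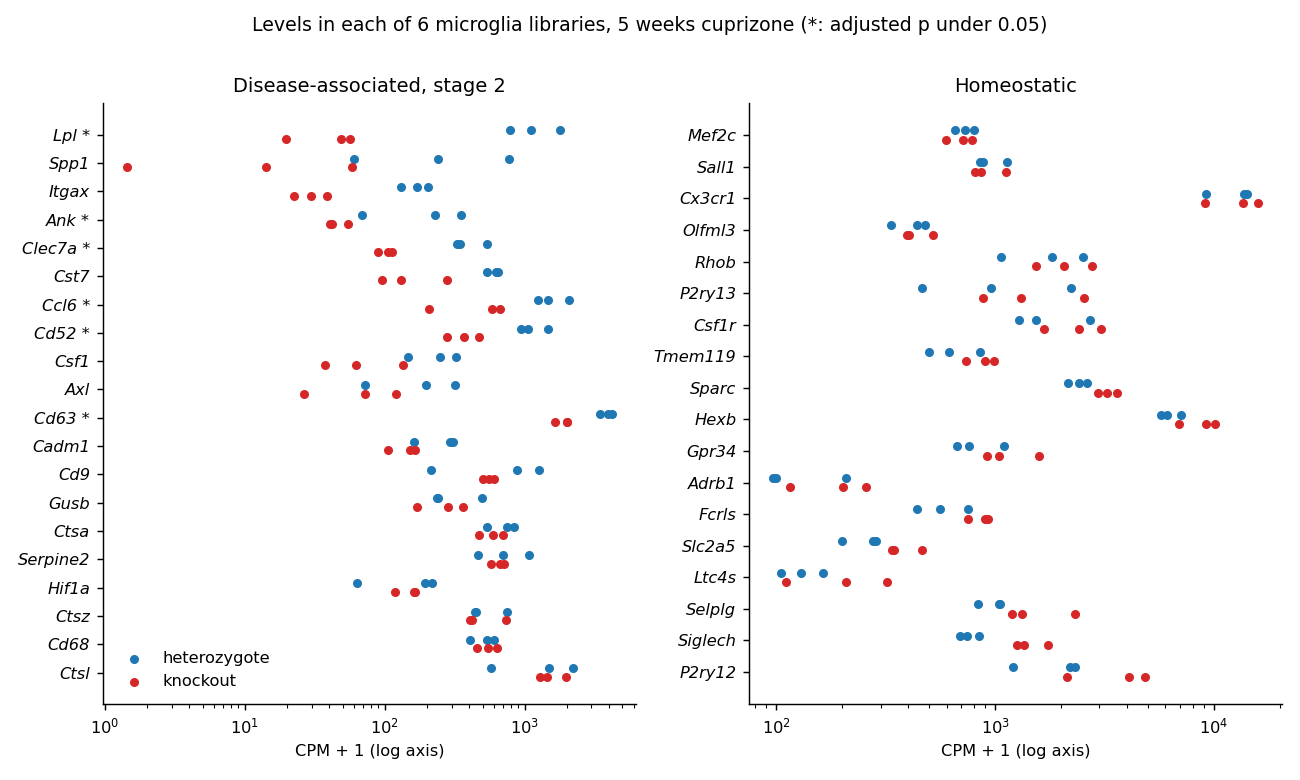
Level (CPM + 1, log axis) of each stage 2 and homeostatic gene in the 6 libraries, heterozygotes in blue and knockouts in red, ordered by fold change, with an asterisk at an adjusted p under 0.05. The knockouts lie to the left of the heterozygotes in 10 of the 20 stage 2 genes and to the right in 4 of the 18 homeostatic genes.

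Genes of foamy, lipid-laden phagocytes had the lowest median of the 19 lists, -1.71, with 15 of 16 members below 0. Slamf8 was the 1 member that passed, and 9 were lower at an unadjusted p under 0.05 (3.08% of all genes were). Several of these genes rested on few counts. Mmp12, macrophage elastase, stood at 8.31, 21.1 and 7.39 CPM in knockouts and 125, 59.1 and 63.9 in heterozygotes (-2.75 ± 0.71, adjusted p = 0.281). Lgals3, which encodes galectin-3, stood at 46.9, 30.6 and 13.03 CPM against 107, 154 and 73.0 (-1.90 ± 0.69, adjusted p = 0.879). Neither pair of groups overlapped. Mmp12 passed by DESeq2 (adjusted p = 0.0132) and with no filter (0.0443), and Lgals3 with no filter (0.0356). Of the other members, Olr1 passed by limma (adjusted p = 0.0373) and with no filter (0.000295), and Ch25h with no filter (0.000282). The growth factor gene Igf1 was at -1.52 ± 0.58 and Fabp5, a fatty acid carrier, at -2.22 ± 1.12 (adjusted p = 0.879 and 0.885). The value of Fabp5 ranged from -6.00 without knockout 2478 to -1.57 without heterozygote 1108. Gpnmb, a glycoprotein of lysosome-rich phagocytes, was at -0.89 ± 0.90 (adjusted p = 1) and its groups overlapped widely.

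A list of 18 phagocytic receptors, which does not hold Clec7a or Axl, gave no call. None of the 18 passed, and none was past an unadjusted p of 0.05 in either direction by edgeR's test. The median was 0.03. The member with the smallest p was Itgam, the CD11b chain used for the sort, at 1162, 1140 and 1279 CPM in knockouts and 497, 1080 and 1100 CPM in heterozygotes (0.43 ± 0.28, adjusted p = 0.936). The low value was that of heterozygote 1106, and without it the difference was 0.18. Mertk, a receptor for apoptotic cells, was at 0.13 ± 0.28, and the lipoprotein receptor gene Lrp1 at -0.02 ± 0.22.

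Homeostatic genes lay to the other side. Of 18 genes none passed, 6 were higher and 0 lower at an unadjusted p under 0.05 (2.53% of all genes were higher), 16 lay above 0, and the median was 0.44. In 4 of them all 3 knockouts lay above all 3 heterozygotes, as in 5.03% of all genes. Without heterozygote 1106 the median was 0.64. Siglech, a sialic acid-binding lectin of microglia, stood at 1352, 1261 and 1741 CPM in knockouts and 846, 692 and 743 in heterozygotes (0.91 ± 0.24, adjusted p = 0.290). P2ry12, the ADP receptor of resting microglia, stood at 2136, 4093 and 4841 CPM in knockouts and 2200.5, 1203 and 2320 in heterozygotes (0.93 ± 0.25, adjusted p = 0.353). All knockouts were above all heterozygotes for Siglech and not for P2ry12. Siglech passed by DESeq2 (adjusted p = 0.0197) and by limma (0.00361), and P2ry12 with no filter (0.00889). Tmem119 was at 0.41 ± 0.26 (adjusted p = 0.932). Cx3cr1, the fractalkine receptor, was at 0.05 ± 0.22 (adjusted p = 1).

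Lipid metabolism outside Lpl gave no call. Of 17 tested genes of 18 for cholesterol efflux and storage none passed, and the median was 0.15. At an unadjusted p under 0.05, 2 were lower (3.08% of all genes were). The lipid exporter genes Abca1 and Abcg1, both targets of the liver X receptors, were at 0.38 ± 0.31 and within 0.01 of 0 (SE 0.52). Abca1 stood at 357, 389 and 302 CPM in knockouts and 176, 349 and 281 in heterozygotes. Soat1, which esterifies cholesterol for storage, stood at 120.2, 117 and 103 CPM in knockouts and 131, 208 and 232 in heterozygotes (-0.74 ± 0.32, adjusted p = 0.879).

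Cholesterol synthesis had 19 tested genes of 21, no call and a median of -0.26, with 14 members below 0. At an unadjusted p under 0.05, 1 was lower (3.08% of all genes were). The lower gene was Hmgcs1, HMG-CoA synthase, at 67.5, 60.9 and 49.5 CPM in knockouts and 129, 159 and 80.5 in heterozygotes (-1.03 ± 0.39, adjusted p = 0.879). Fatty acid genes had a median of 0.02 over 20 tested genes of 22. Of these Fabp3, a fatty acid carrier, had the smallest p and stood at 0.869 to 8.12 CPM in knockouts and 18.3 to 56.6 in heterozygotes (-2.98 ± 1.001, adjusted p = 0.879). Over the 29 lysosomal genes the median was 0.08, none passed, and the member with the smallest p was Gla, alpha-galactosidase (-1.37 ± 0.47, adjusted p = 0.879).

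**Figure D4:**
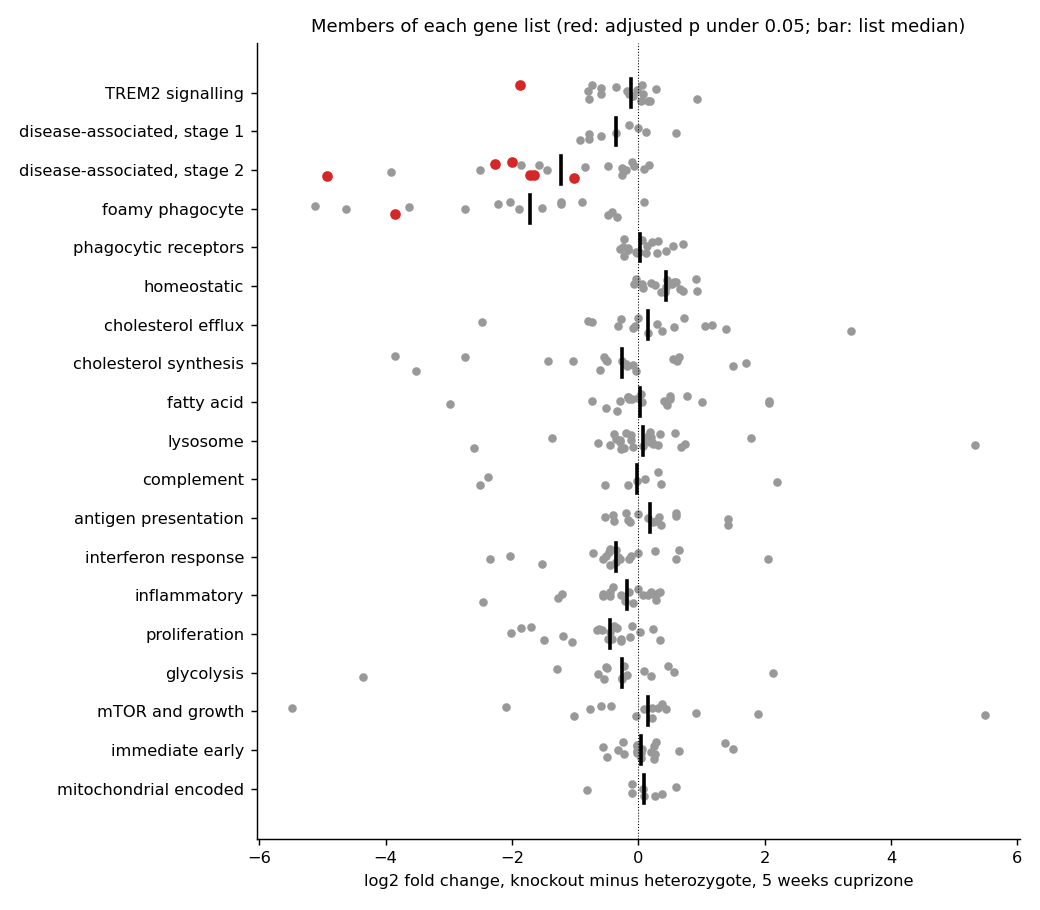
Log2 fold change (knockout minus heterozygote) of each tested member of the 19 gene lists, 1 point per gene, red where the adjusted p is under 0.05, with a bar at the list median. The foamy phagocyte and stage 2 lists have the lowest medians (-1.71 and -1.23) and the homeostatic list the highest (0.44), against 0.02 over all genes.

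On control chow the same genotypes were compared in other animals, to ask whether the differences were present without demyelination. No gene passed by edgeR's test (848 at an unadjusted p under 0.05, 6.02% of genes), against 5 by DESeq2 and 0 by limma. Lpl was at 24.2, 51.7 and 33.9 CPM in knockouts and 42.3, 53.8 and 41.5 in heterozygotes on control chow (-0.32 ± 0.46). The 18.7 to 55.5 CPM of the knockouts on cuprizone spanned these values, while the heterozygotes on cuprizone lay far above them. Clec7a and Trem2 were at -1.37 ± 0.35 and -1.24 ± 0.33 on control chow (adjusted p = 0.822 for both). Cd52 was at 0.21 ± 0.27, Cd63 at 0.25 ± 0.22 and Ccl6 at 0.35 ± 0.36.

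The interaction of diet and genotype tests whether the genotype difference itself differed between the diets. It passed for 2 genes (0.0142% of genes), Lpl and Mmp12, both with a lower value on cuprizone. For Lpl it was -4.61 ± 0.67 (adjusted p = 0.00188), and it passed in all 18 alternative fits run (adjusted p up to 0.0179). For Mmp12 it was -5.93 ± 1.17 (adjusted p = 0.0333). On control chow Mmp12 was at 3.73, 16.8 and 0 CPM in knockouts and at 0, 0 and 2.13 in heterozygotes. Its value is therefore unsteady, and without control knockout 945 it was -4.10 (adjusted p = 0.993). Without heterozygote 1106 the Mmp12 interaction was -5.59 (adjusted p = 0.116).

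Cd52 (-1.86 ± 0.38, adjusted p = 0.0512) and Slamf8 (-3.44 ± 0.75, adjusted p = 0.0803) lay just outside the threshold of the interaction. Cd52 passed in 8 of 18 alternative fits, among them DESeq2 (adjusted p = 0.00153), limma (0.0170) and no filter (0.0123). Slamf8 passed in 4 of 18, among them DESeq2 (0.00319) and no filter (0.0363). Pianp was at -3.99 ± 1.22 (adjusted p = 0.590), Ccl6 at -2.06 ± 0.51 (0.260) and Cd63 at -1.28 ± 0.31 (0.204). The latter 2 passed by DESeq2 (0.0229 and 0.00864) and with no filter (0.000237 and 0.0227). For Trem2 (-0.64 ± 0.45) and Clec7a (-0.63 ± 0.48) the difference on cuprizone was not shown to differ from that on control chow (adjusted p = 0.837 and 0.858). The same held for Ank (-1.355, adjusted p = 0.724). Neither Ank nor Pianp passed in any of the 18 alternative fits (lowest adjusted p 0.650 and 0.103). The median interaction over stage 2 was -0.97 with 18 of 20 members below 0, over the homeostatic list 0.21, and over all genes 0.00.

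Wild-type microglia on cuprizone place the heterozygous level. The comparisons with wild type share the heterozygous or the knockout libraries with the comparison of knockouts and heterozygotes, so their values are only set side by side. Heterozygotes against wild types gave no called gene by edgeR's test (600 at an unadjusted p under 0.05, 4.26%), 1 by DESeq2 and 2 by limma. Knockouts against wild types gave 11, all lower (0.0781%). The mean of the heterozygotes was 82.7% of the wild-type mean for Lpl, 87.2% for Slamf8, 72.7% for Clec7a and 99.3% for Trem2. The knockout means were 2.74%, 6.11%, 18.2% and 27.1% of the wild-type means. The heterozygous means include heterozygote 1106, the library that stood apart, which had the highest Trem2 level of the heterozygotes. Without it, the Trem2 difference between knockouts and heterozygotes was -1.51 instead of -1.88. The percentages were not recomputed without this library, so 99.3% does not establish that heterozygotes reach the wild-type level of Trem2.

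For Lpl the difference from wild type was -0.27 ± 0.44 in heterozygotes and -5.20 ± 0.53 in knockouts. For Clec7a these values were -0.48 ± 0.33 and -2.48 ± 0.35, and for Cd52 -0.02 ± 0.27 and -1.66 ± 0.28. Cd63 differed from this order: its heterozygous mean was 129% of wild type (0.35 ± 0.22), and knockouts against wild types gave -0.67 ± 0.22 (adjusted p = 0.805). Axl, a member that did not pass against heterozygotes, passed against wild types (-2.14 ± 0.45, adjusted p = 0.0318). Crip1, a LIM-domain protein gene, and Phlda1, a pleckstrin homology-like domain gene, also passed there (-3.16 ± 0.69 and -2.59 ± 0.54, adjusted p = 0.0372 and 0.0235). Against heterozygotes, Crip1 stood at 18.4, 2.44 and 9.12 CPM in knockouts and 47.1, 61.5 and 66.2 in heterozygotes (-2.54 ± 0.68, adjusted p = 0.312), and Phlda1 was at -2.09 ± 0.53 (adjusted p = 0.281). Both passed there by DESeq2 (adjusted p = 0.0481 and 0.0382).

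After 12 weeks of cuprizone, in other animals, 148 genes passed between knockouts and heterozygotes (1.05% of genes), 106 lower (0.752%) and 42 higher (0.298%). Medians for markers of other Cd11b-positive cells lay above the -0.02 of all genes. All 9 neutrophil markers lay above 0 (median 4.23) and 1 of them, Retnlg, passed (6.58 ± 1.57, adjusted p = 0.0368). Their summed level was 606 to 6033 CPM in knockouts and 114 to 349 in heterozygotes. Of the 5 monocyte markers 4 lay above 0 (median 3.18) and none passed, with sums of 25.6 to 169 and 2.30 to 40.9 CPM, and Chil3 at 0 in all 4 heterozygotes. Of the 8 border macrophage markers 5 lay above 0 (median 0.84) and 2 passed, both higher in knockouts. The 8 summed to 682 to 1002 CPM in knockouts and 326 to 602 in heterozygotes. The part of these cells in the 12-week results was not tested. Of the 9 genes of 5 weeks, 7 were lower and passed again. Lpl was at 56.5, 123 and 98.2 CPM in knockouts and 1607 to 2645 in the 4 heterozygotes (-4.42 ± 0.50, adjusted p = 2.85e-06). Pianp was at 0 to 3.56 CPM against 133 to 263 (-7.07 ± 0.93, adjusted p = 1.53e-06). Cd52 (-1.72 ± 0.27), Clec7a (-1.50 ± 0.32), Trem2 (-2.55 ± 0.33), Cd63 (-1.02 ± 0.21) and Ccl6 (-1.76 ± 0.35) were the others. Ank was at -1.71 ± 0.46 (adjusted p = 0.0515).

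Slamf8 had the other pattern. At 12 weeks it stood at 21.7, 19.2 and 49.8 CPM in knockouts and at 24.6 to 66.0 in heterozygotes (-0.55 ± 0.48, adjusted p = 0.657). The change of its genotype difference between the weeks was 3.31 ± 0.72, which did not pass (adjusted p = 0.109), but passed by DESeq2 (0.00363), with no filter (0.0255), without heterozygote 1106 (0.0113) and without knockout 9542 (0.0415). Apoe went the opposite way, from -0.92 ± 0.25 at 5 weeks to -2.09 ± 0.25 at 12 weeks (adjusted p = 1.51e-07), and this change was not past the threshold either (-1.17 ± 0.34, adjusted p = 0.272).

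The 1 gene that passed the test of the weeks (0.0071% of genes) was Rps26, a protein of the small ribosomal subunit, at -2.29 ± 0.43 (adjusted p = 0.0273), and -2.85 without heterozygote 1106 (adjusted p = 0.000466). The call was lost in 10 of 19 alternative fits, 7 of them with a library left out (adjusted p 0.413 without heterozygote 8042 and 0.271 without knockout 981). At 5 weeks Rps26 stood at 856, 1032 and 967 CPM in knockouts and 1127, 424 and 656 in heterozygotes (0.36 ± 0.31). At 12 weeks it stood at 566, 367 and 273 CPM in knockouts and 1233 to 1845 in heterozygotes (-1.93 ± 0.31). Ribosomal protein genes have many near-identical processed copies, so its counts are uncertain.

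**Figure D5:**
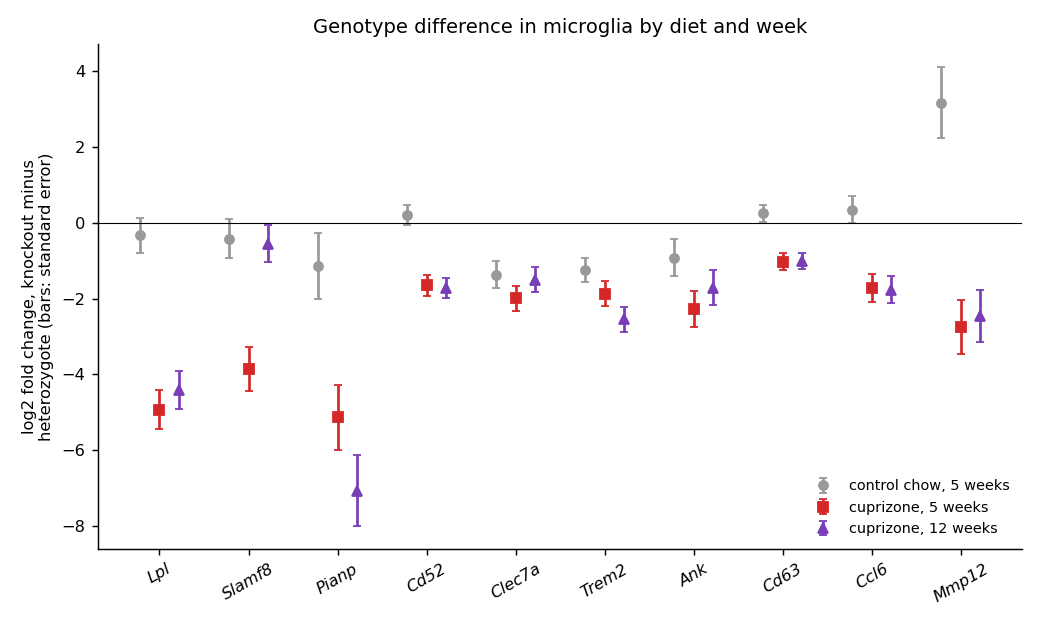
Log2 fold change between knockout and heterozygous microglia (bars: 1 standard error) for the 9 called genes and Mmp12, on control chow at 5 weeks (grey circles), cuprizone at 5 weeks (red squares) and cuprizone at 12 weeks (purple triangles). The widest gaps between red and purple points are those of Slamf8 (-3.86 and -0.55) and Pianp (-5.13 and -7.07), and the grey points lie nearer to 0, except that Mmp12 is at 3.18.

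In the remaining brain cells of the same 6 animals no gene of 16915 passed between the genotypes by edgeR's test (475 at an unadjusted p under 0.05, 2.81%), against 1 by DESeq2 and 0 by limma. Lpl stood there at 8.18 ± 2.55 CPM in knockouts and 9.95 ± 2.34 in heterozygotes (SD, n = 3 each), with a difference of -0.29 ± 1.09. The myelin gene Mbp stood at 1514 to 2136 CPM in knockouts and 877 to 1791 in heterozygotes (0.53 ± 0.30). Adjusted p was 1 for both genes, and the groups overlapped for Mbp. Summed over 14 genes of mature oligodendrocytes, the fraction held 16871 to 21630 CPM in knockouts and 9663 to 19608 in heterozygotes.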

How the data were processed

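Counts are the authors' deposited table: whole numbers of 3' tags per gene for 49912 genes and 74 libraries of 37 animals, not normalized. Quality control with FastQC 0.11.5 and MultiQC, STAR, R 3.4.3 and the GRCm38.p6 build are listed in the submitters' processing notes. The sources used here do not name the counter or annotation, nor say whether strand or unique identifiers were used, so overlapping genes and close copies can share counts. Library preparation was QuantSeq 3' tag sequencing, per the labels.

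The 37 microglia libraries were fitted together in edgeR 4.0.16 (R 4.3.3): filterByExpr with a minimum count of 10, TMM, 12 group means plus sex and a robust quasi-likelihood test, two-sided, with Benjamini-Hochberg adjustment over all tested genes and calls at an adjusted p under 0.05. The remaining fraction was fitted in the same way. Standard errors come from the F statistic, and CPM are TMM-normalised counts scaled to a common library total. Animals of all 12 groups share 1 estimate of the spread. The code was tested on simulated counts. No 2 of the 6 libraries agreed within sampling noise. Coordinates are from GENCODE M21 (GRCm38).

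Alternatives were DESeq2 1.42.0 (size factors or Wald test), limma 3.58.1 voom with quality weights, no filter, no sex term, the compared libraries alone and leaving out each library. The comparison, the 19 program and 13 marker lists and the tests were chosen with earlier results of these data known. Genes named are a panel of 22, all called genes, the list members called or with the smallest p, and up to 5 called genes of other comparisons. Genes outside this rule (such as Syk, Plcg2, Adam10, Adam17, Fth1, B2m, Mertk, Lrp1, Ctsl, Ctsz, Cd68, C1qa, Adgre1 and Sh3pxd2b) were chosen after their values were seen; called genes at 12 weeks are given as counts.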

Additional observations from a re-analysis of the deposited data

Results flagged for a closer look

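The genotype difference of Lpl in microglia differed between cuprizone and control chow at 5 weeks by the interaction term (log2 -4.61, adjusted p = 0.00188). The mean difference between genotypes was -4.93 on cuprizone and -0.32 on control chow. For Mmp12 the interaction was -5.93 (adjusted p = 0.0333), from -2.75 on cuprizone and 3.18 on control chow, where its levels were 0 to 16.8 CPM. For Rps26 the difference on cuprizone differed between 12 and 5 weeks (-2.29, adjusted p = 0.0273), from 0.36 at 5 weeks to -1.93 at 12 weeks, and its call was lost in 10 of 19 alternative fits (adjusted p up to 0.413). The Mmp12 call was lost in 9 of 18 (adjusted p up to 0.993).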

How the results depend on the processing

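The directions of the 9 called genes were kept in all 12 alternative fits of the comparison. Lpl, Slamf8, Pianp, Cd52 and Clec7a passed whichever of the 6 libraries was left out. With only the 6 libraries, 5 genes passed, 4 of them among the 9, and Trem2 (adjusted p = 0.0994), Cd52 (0.101), Ank (0.304), Cd63 (0.872) and Ccl6 (0.315) did not; the cause was not tested. Lower genes numbered 26 by DESeq2, 18 by limma and 23 with no filter, and 6 to 8 with a library left out. Higher genes numbered 2, 4 and 2, and 0 to 1 with a library left out, the 1 being Lgals9 without heterozygote 1106. No paired analysis was possible because the groups compared share no animal number.

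Counts of called genes by DESeq2, limma and no filter were 14, 3 and 38 for the diet interaction, 5, 0 and 33 on control chow, 34, 40 and 32 for knockouts against wild types, 1, 2 and 0 for heterozygotes against wild types, 447, 142 and 279 at 12 weeks, 35, 7 and 59 for the change between weeks, and 1, 0 and 5 in the remaining cells. With only the libraries of the groups compared they were 1 for the diet interaction, 17 for knockouts against wild types and 0 for the change between weeks, which was also 0 with DESeq2 size factors and with no sex term. With each library left out in turn they ranged over 1 to 9 for the diet interaction (9 without knockout 9470), 0 to 2 on control chow (2 without the same animal), 6 to 10 for knockouts against wild types (6 without knockout 8485, 7 without wild type 2474 or 9144), 36 to 170 at 12 weeks (36 without knockout 981, 59 without heterozygote 2476, 64 without heterozygote 9469, 91 without heterozygote 6296) and 0 to 29 for the change between weeks (29 without heterozygote 1106, 11 without knockout 9542). They stayed at 0 for heterozygotes against wild types and in the remaining cells.

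Of the named genes' values between knockouts and heterozygotes on cuprizone at 5 weeks, 484 kept their direction and side of the threshold, 24 lost and 19 gained the call, and 11 changed sign, none of them called. The sign changes were Abcg1 with no filter (0.060) and with a library left out (-0.30 to 0.30), and with a library left out Cd9 (-0.90 to 0.39), Ctsb (-0.37 to 0.076), Cx3cr1 (-0.11 to 0.24), Gpnmb (-2.31 to 0.25) and Ifi27l2a (-1.14 to 0.16, the latter without heterozygote 1106). The Rps26 result lost its call with DESeq2 size factors (adjusted p = 0.0509) and with no sex term (0.0615). It also lost the call with only the libraries of the groups compared (0.0800) and in 7 fits with a library left out. Genes at a few counts, such as Pianp, Fabp5 and Olr1 in knockouts, have folds limited by depth.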

Other observations

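Immune lists outside the disease-associated ones gave no called gene in cuprizone-fed microglia at 5 weeks. The 20 interferon response genes had a median of -0.35 with 16 below 0, and the median was 0.09 without heterozygote 1106. Ifi27l2a, the member with the smallest p, stood at 450.2 CPM in that library and at 61.3 to 216 in the other 5. The 16 antigen presentation genes had a median of 0.19, and H2-D1, a chain of MHC class I, was at 0.59 ± 0.34 (adjusted p = 0.897). The 20 inflammatory genes had a median of -0.18 with 3 lower at an unadjusted p under 0.05 (3.08% of all genes were). Among them Cxcl16, a chemokine, stood at 33.2, 19.8 and 31.7 CPM in knockouts and 102, 64.5 and 35.95 in heterozygotes (-1.27 ± 0.56, adjusted p = 0.879). The 9 tested complement genes had a median of -0.02, with 5 below 0 and 4 above, and the integrin chain Itgax had the smallest p. Their median ranged from -0.21 to 0.41 over the 12 alternative fits. Of the members, C1qa stood at 4755, 5830 and 5290.4 CPM in knockouts and 7711, 7584 and 7595 in heterozygotes, with no overlap (-0.53 ± 0.30, adjusted p = 0.885).

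Proliferation genes had a median of -0.45, with 19 of 22 below 0 and 0 past an unadjusted p of 0.05. Mki67, a marker of cycling cells, stood at 9.99 to 18.1 CPM in knockouts and 17.7 to 21.5 in heterozygotes, and Cdca8, a mitotic gene, was at -1.85 ± 1.77. Medians were -0.25 over 15 glycolysis genes, 0.15 over 16 growth genes, 0.04 over 21 immediate early genes and 0.09 over 8 tested of 13 mitochondrial genes. Their members with the smallest p were Tpi1 (-1.29 ± 0.71, and -0.51 without heterozygote 1106), Rps6 (-5.49 ± 2.56, at 0 in 5 of the 6 libraries), Hsp90aa1 (0.65 ± 0.39) and mt-Nd6 (-0.81 ± 0.38).

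Among genes that did not pass by edgeR's test, Sh3pxd2b, an adaptor protein of podosomes, had the smallest p. It stood at 1.74 to 13.4 CPM in knockouts and 43.9 to 79.1 in heterozygotes (-2.73 ± 0.67, adjusted p = 0.190). Sh3pxd2b passed by DESeq2 (adjusted p = 0.0131) and with no filter (0.0442). Adgre1, which encodes the macrophage marker F4/80, stood at 229, 340.0 and 265 CPM in knockouts and 79.3, 153 and 113 in heterozygotes (1.27 ± 0.32, adjusted p = 0.281). It passed by DESeq2 (adjusted p = 0.0355). On control chow the Adgre1 difference was -0.53 ± 0.32, and the diet interaction was 1.80 ± 0.46 (adjusted p = 0.260).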
